A study of Mus musculus with 14 samples.

Results

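Transcripts of 10 genes that T cells and natural killer (NK) cells are known for were followed through 12 bulk RNA-seq libraries of transplanted mouse gastric tumours. They were found by symbol among the 24421 genes of the count tables, and all 10 were present. Cd3e and Cd3g encode chains of the CD3 complex, which carries the signal of the T cell receptor. Lck encodes the kinase that starts that signal, and Cd8a encodes a chain of the co-receptor of cytotoxic T cells. Klrb1c encodes the NK receptor known as NK1.1, and Ncr1 the activating NK receptor NKp46. Nkg7 encodes a membrane protein of cytotoxic granules, Gzma and Gzmb the granzymes A and B, and Prf1 the pore-forming protein perforin.

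Cytotoxic T cells and NK cells kill by releasing granules, in which perforin opens the way for granzymes into the target cell. T cells recognise peptides through their receptor and CD3, whereas NK cells carry germline-encoded receptors and lack surface CD3, so CD3 genes are commonly used to tell the lineages apart. In tumours, both lineages are studied as the cells that can attack transformed epithelium.

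The libraries formed 4 groups of 3. Tumours labelled TM, TMP and TMPC were grown under the skin (subcutaneous), and TMPC tumours were also grown in the organ of origin (orthotopic). TM, TMP and TMPC are not spelled out in the labels and are used here as names. About 1 cm3 of tissue was taken 2 months after transplantation from every group. The labels give no strain, sex or age of the host mice, no genotype beyond these names, and do not say whether each replicate is a different animal. The p-values therefore cover library-to-library spread, part of which may be technical.

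The libraries held 16584781 to 21107310 counts each. Levels are given as CPM, which put the libraries on one scale with TMM factors over all 12, and 3 counts came to 0.142 to 0.181 CPM. Replicate 2 of subcutaneous TM stood apart. It had 0 counts over 4 Y-linked genes, against 493 to 5420 in the other 11 libraries. The 8 epithelial genes summed to 241 CPM in it and to 4300 and 4593 CPM in the other TM libraries. Xist ran from 191 to 1388 CPM in the TM libraries and reached at most 13.5 CPM in the other 9, so a difference between hosts or donors and the TM label cannot be told apart. Calls against TM are therefore given with and without replicate 2.

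Each of the 10 genes had its highest level in a TM library, and the promoters of Gzma, Gzmb, Ncr1, Nkg7 and Cd3e are shown. The stretches below are the 250 bases before the RefSeq start (build GRCm38.p6), read 5′ to 3′ on the strand of the gene. Capitals mark matches, on either strand, to the letters TGTGGT (a RUNX core), AGGAAG (an ETS core), GGTGTG (a T-box core), CTTTGA (a TCF/LEF core) or TTCNNNGAA (a STAT palindrome), transcription factor families known in T and NK cells.
Gzma (chr13:113100982-113101231, - strand): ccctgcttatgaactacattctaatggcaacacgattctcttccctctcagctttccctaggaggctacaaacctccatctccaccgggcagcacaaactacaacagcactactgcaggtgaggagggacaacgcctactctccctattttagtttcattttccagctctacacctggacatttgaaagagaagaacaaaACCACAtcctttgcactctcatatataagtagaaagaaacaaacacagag
Gzmb (chr14:56262335-56262584, - strand): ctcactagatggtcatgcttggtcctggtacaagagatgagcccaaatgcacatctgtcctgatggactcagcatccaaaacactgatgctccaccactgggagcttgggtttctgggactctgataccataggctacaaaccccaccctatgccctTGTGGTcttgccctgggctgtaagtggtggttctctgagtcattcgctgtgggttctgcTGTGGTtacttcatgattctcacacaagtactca
Ncr1 (chr7:4337465-4337714, + strand): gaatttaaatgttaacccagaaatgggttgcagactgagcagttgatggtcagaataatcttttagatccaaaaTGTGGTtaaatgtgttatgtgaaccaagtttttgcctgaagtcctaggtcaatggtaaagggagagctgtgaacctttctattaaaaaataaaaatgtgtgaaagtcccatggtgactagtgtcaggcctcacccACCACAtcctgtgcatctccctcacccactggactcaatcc
Nkg7 (chr7:43436888-43437137, + strand): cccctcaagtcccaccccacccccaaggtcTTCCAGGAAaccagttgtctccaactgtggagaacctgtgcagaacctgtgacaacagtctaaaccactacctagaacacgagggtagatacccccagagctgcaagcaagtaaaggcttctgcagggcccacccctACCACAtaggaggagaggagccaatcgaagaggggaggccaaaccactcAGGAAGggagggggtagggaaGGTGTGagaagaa
Cd3e (chr9:45009612-45009861, - strand): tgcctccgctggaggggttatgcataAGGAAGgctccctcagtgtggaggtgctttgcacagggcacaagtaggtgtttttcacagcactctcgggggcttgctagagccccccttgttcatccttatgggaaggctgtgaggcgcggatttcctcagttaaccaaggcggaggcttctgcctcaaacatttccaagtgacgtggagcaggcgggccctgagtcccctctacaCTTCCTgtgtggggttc

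Over the full windows, from 250 bases before to 50 after the start, all 10 genes were matched, with 12 windows. TGTGGT stood in the windows of 7 of the 10 genes, namely Lck, Klrb1c, Ncr1, Nkg7, Gzma, Gzmb and Prf1, and in those of 18.9% of the 27025 genes with a window. It was not found for Cd3e, Cd3g and Cd8a. Gzma held it once, 50 bases before the start, and Gzmb held it 93 and 34 bases before the start. In the Ncr1 window shown it stood 176 and 41 bases before the start. AGGAAG stood in 5 of 10 (38.4% of all genes), TTCNNNGAA in 2 of 10, Nkg7 and Gzmb (9.55%), GGTGTG in 1 of 10, Nkg7 (21.4%), and CTTTGA in 0 of 10 (18.2%). These matches describe letters in a window only and were chosen for families already known in these cells.

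In the GENCODE annotation of mm10, the build of the files, the T cell genes lie with Cd3e at chr9:44998740-45009627 (- strand), Cd3g at chr9:44969572-44980431 (- strand), Lck at chr4:129548344-129573641 (- strand) and Cd8a at chr6:71373427-71379173 (+ strand). Of the NK receptor genes, Klrb1c lies at chr6:128778485-128789215 (- strand) and Ncr1 at chr7:4337724-4345164 (+ strand). The granule genes lie with Nkg7 at chr7:43437073-43438249 (+ strand), Gzma at chr13:113093825-113100981 (- strand), Gzmb at chr14:56258838-56262260 (- strand) and Prf1 at chr10:61297833-61304680 (+ strand). Cd3e and Cd3g lie close together, and the counts cover whole genes, so no exon is told apart.

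**Figure D1:**
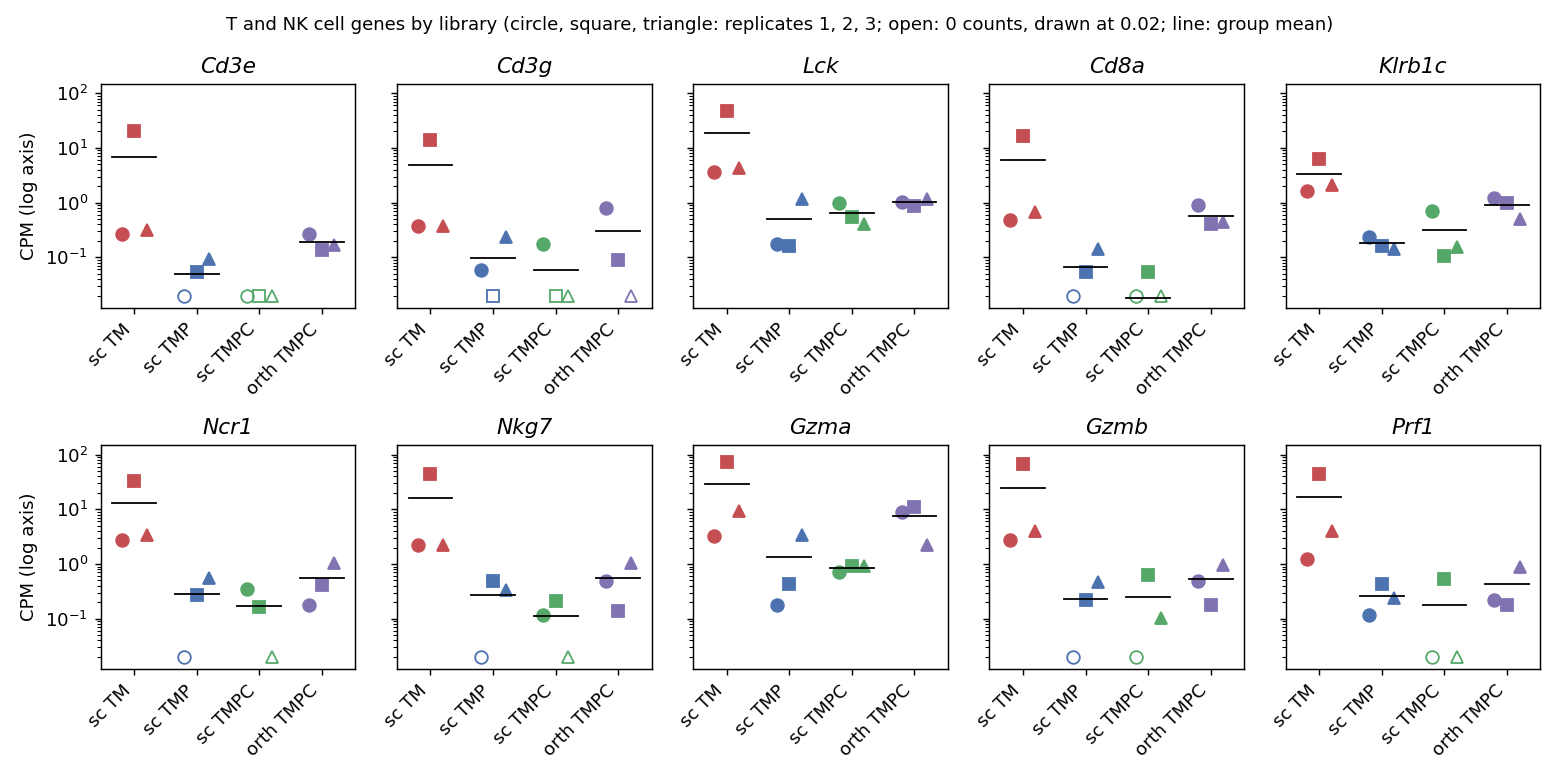
Level of each of the 10 T and NK cell genes in each library, as CPM on a log axis, by group (sc, subcutaneous; orth, orthotopic). Symbols stand for replicates 1 to 3, open symbols for libraries with 0 counts (drawn at 0.02), and lines for group means; subcutaneous TM replicate 2 is the highest of the 12 libraries for every gene.

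The T cell receptor genes had at most 18 counts in any library outside TM replicate 2. Cd3e had 5, 300 and 7 counts in the 3 subcutaneous TM libraries, 0, 1 and 2 in subcutaneous TMP, 0, 0 and 0 in subcutaneous TMPC, and 6, 3 and 3 in orthotopic TMPC. Cd3g had 7, 210 and 8 counts in TM, 1, 0 and 5 in TMP, 3, 0 and 0 in subcutaneous TMPC, and 18, 2 and 0 in orthotopic TMPC. Replicate 2 thus held nearly all CD3 counts of the TM group, and a level of Cd3e in a subcutaneous TMPC library of up to 3 counts cannot be told from none. The orthotopic libraries each had more Cd3e counts than any subcutaneous TMPC library, but their Cd3g counts overlapped.

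Cd8a was also highest in TM replicate 2. It had 9, 249 and 15 counts in TM, 0, 1 and 3 in TMP, 0, 1 and 0 in subcutaneous TMPC, and 20, 9 and 8 in orthotopic TMPC. Without replicate 2 the TM mean was 0.583 CPM, level with 0.580 CPM in orthotopic TMPC. The orthotopic and subcutaneous TMPC libraries did not overlap for this gene. Its partner chain Cd8b1, not among the 10, had 0 counts over the 3 subcutaneous TMPC libraries and 6 counts over the orthotopic ones.

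Lck was at 3.56, 48.4 and 4.21 CPM in TM, 0.178, 0.163 and 1.18 CPM in TMP, 0.994, 0.535 and 0.413 CPM in subcutaneous TMPC, and 1.02, 0.86 and 1.16 CPM in orthotopic TMPC. All TM libraries were above all others, with TMP and subcutaneous TMPC overlapping.

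The NK receptor genes kept a signal in the TM libraries that had little CD3. Ncr1 was at 2.71, 33.6 and 3.43 CPM in TM, at 0, 0.272 and 0.564 CPM in TMP, at 0.351, 0.16 and 0 CPM in subcutaneous TMPC, and at 0.178, 0.407 and 1.05 CPM in orthotopic TMPC. Klrb1c was at 1.65, 6.27 and 2.11 CPM in TM, at 0.238, 0.163 and 0.141 CPM in TMP, at 0.702, 0.107 and 0.155 CPM in subcutaneous TMPC, and at 1.2, 0.995 and 0.498 CPM in orthotopic TMPC. Klrb1c stood out least in TM replicate 2, at 3.34 times the mean of the other TM libraries, where Ncr1 was at 10.9 times and Cd3e at 68.3 times. Klrb1c has close relatives in its gene cluster, so its counts may be split among them.

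Of the granule genes, Gzma was at 3.3, 73.1 and 9.16 CPM in TM, at 0.178, 0.435 and 3.43 CPM in TMP, at 0.702, 0.909 and 0.929 CPM in subcutaneous TMPC, and at 8.93, 11.2 and 2.27 CPM in orthotopic TMPC. Gzmb was at 2.77, 67.7 and 3.98 CPM in TM, at 0, 0.217 and 0.47 CPM in TMP, at 0, 0.642 and 0.103 CPM in subcutaneous TMPC, and at 0.489, 0.181 and 0.942 CPM in orthotopic TMPC. For Gzma 1 orthotopic library was thus above TM replicates 1 and 3 and another lay between them, while orthotopic Gzmb stayed below every TM library.

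Prf1 was at 1.22, 44.4 and 3.98 CPM in TM, at 0.119, 0.435 and 0.235 CPM in TMP, at 0, 0.535 and 0 CPM in subcutaneous TMPC, and at 0.222, 0.181 and 0.886 CPM in orthotopic TMPC. Nkg7 was at 2.18, 43.4 and 2.24 CPM in TM and at or below 0.489 CPM in TMP, 0.214 CPM in subcutaneous TMPC and 1.05 CPM in orthotopic TMPC. Both were highest in TM and overlapped among the other groups.

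Per kilobase of exon, Gzma had the highest mean level of the 10 in every group. It was 28.3 ± 38.5 CPM per kb in TM (SD, n = 3), 1.34 ± 1.8 in TMP, 0.841 ± 0.125 in subcutaneous TMPC and 7.42 ± 4.6 in orthotopic TMPC (each SD, n = 3). Without replicate 2 the TM mean was 6.19 ± 4.12 CPM per kb (SD, n = 2). In orthotopic TMPC the next gene was Nkg7 at 0.612 ± 0.506 CPM per kb (SD, n = 3), and the lowest orthotopic Gzma value, 2.26, was above the highest of Nkg7, 1.15. Gzmb, Ncr1, Lck and Klrb1c followed at 0.374 to 0.303 CPM per kb with overlapping ranges. Cd3e was last in every group but TM, where it ranked last only without replicate 2, at 0.0719 ± 0.00944 CPM per kb (SD, n = 2), with Cd3g, Cd8a and Klrb1c next above it.

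Subcutaneous TMP and TM were compared first, which asks how the tumours carrying these 2 labels differ at 1 site. Lck, Klrb1c, Ncr1, Nkg7, Gzma, Gzmb and Prf1 were lower in TMP, tested with edgeR (quasi-likelihood, p adjusted by Benjamini-Hochberg over 15277 genes). These 7 of the 10 passed the filter on low counts, and 6 of them passed only through the TM libraries, since Gzma alone passed when TMP and TMPC were fitted without TM. A gene that passes in this way had to be higher in TM. Of all genes tested 27.7% passed the threshold of 0.05, 13.4% lower in TMP and 14.3% higher.

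Gzmb had the widest difference, with a log2 fold change of -6.79 ± 1.87 (SE; adjusted p = 0.0314), and Klrb1c the narrowest, at -4.24 ± 0.91 (adjusted p = 0.0145). Prf1 was at -6.04 ± 1.80 (adjusted p = 0.0400), Gzma at -4.49 ± 1.42 (adjusted p = 0.0480) and Lck at -5.28 ± 1.35 (adjusted p = 0.0247). Without TM replicate 2, Lck at -2.89 ± 0.84 (adjusted p = 0.0330) and Klrb1c at -3.34 ± 0.80 (adjusted p = 0.0172) still passed, beside 31.2% of all genes. The other 5 no longer did, with log2 fold changes from -2.18 for Gzma (adjusted p = 0.134) to -3.79 for Gzmb (adjusted p = 0.0525). Leaving out TMP replicate 1 or 2 left 0 of 8 tested members past the threshold by edgeR, though all 8 had an unadjusted p under 0.05, and leaving out TMP replicate 3 left 2. Without TMP replicates 1, 2 and 3 in turn, 1550 of 15810, 2132 of 15754 and 1870 of 15755 genes passed. Those with an unadjusted p under 0.05 were 5064, 5444 and 5387 genes.

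Counting libraries, 9 of the 10 genes were lower in every TMP library than in every TM library, the exception being Gzma in TMP replicate 3. The same held without TM replicate 2. Of all genes 19.7% were lower in every TMP library, and 31.2% without TM replicate 2. Pooled over libraries, Cd3e was 106-fold higher in TM than in TMP (95% counting interval 35.8 to 515), and 5.56-fold higher (1.5 to 30.7) without replicate 2. The same ratio for Ncr1 was 37.6 (23.3 to 65), and 10.3 (6.18 to 18.2) without replicate 2. For Gzma it was 16.4 (13.2 to 20.7) and 4.34 (3.38 to 5.61). These intervals cover counting error only.

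**Figure D2:**
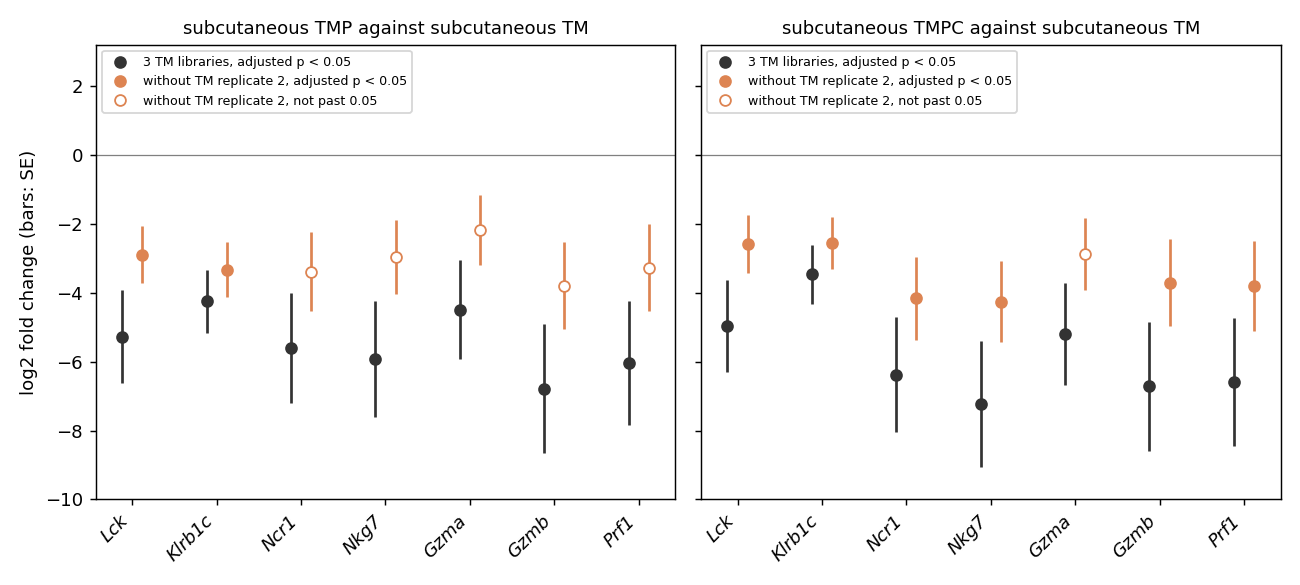
Log2 fold change (points) and standard error (bars) of the 7 tested T and NK cell genes, in subcutaneous TMP (left) and subcutaneous TMPC (right) against subcutaneous TM, with all 3 TM libraries and without TM replicate 2. Every point lies below 0, filled points passed an adjusted p of 0.05, and without replicate 2 the points passing fall from 7 to 2 on the left and to 6 on the right.

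Subcutaneous TMPC was compared with the same 3 TM libraries, so the comparisons share their reference. The same 7 genes were tested, 6 of them again only through the TM libraries, which fixes their direction. All 7 were lower in TMPC, beside 35.8% of all genes past the threshold, 17.8% lower and 18.0% higher. Nkg7 was at -7.23 ± 1.84 (SE; adjusted p = 0.0186), Ncr1 at -6.38 ± 1.67 (adjusted p = 0.0204), Prf1 at -6.60 ± 1.87 (adjusted p = 0.0268) and Klrb1c at -3.47 ± 0.87 (adjusted p = 0.0174), by edgeR. Without TM replicate 2, 6 still passed, beside 40.8% of all genes. Among them Nkg7 was at -4.26 (adjusted p = 0.0218) and Ncr1 at -4.16 (adjusted p = 0.0265). Gzma did not pass, at -2.87 ± 1.05 (adjusted p = 0.0584). Leaving out TMPC replicate 1 or 2 left 2 of 8 past the threshold, and leaving out TMPC replicate 3 left 0 of 8 by edgeR, with all 8 at an unadjusted p under 0.05. Without TMPC replicates 1, 2 and 3 in turn, 4729 of 15761, 3414 of 15768 and 3777 of 15781 genes passed. Those with an unadjusted p under 0.05 were 7260, 6264 and 6604 genes.

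All 10 genes were lower in every subcutaneous TMPC library than in every TM library, with and without replicate 2, beside 18.8% and 29.9% of all genes. Cd3e was at least 103-fold lower in TMPC than in TM, taking the floor as 3 counts summed over the 3 libraries, and at least 5.43-fold lower without replicate 2. Cd8a, with 1 count in TMPC, gave a ratio of 32.6 (5.31 to 1340) without replicate 2. Nkg7 gave 20.4 (9 to 57) and Ncr1 19 (9.7 to 42.5) without replicate 2.

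In the authors' deposited table, which sets TM against the other subcutaneous groups, Klrb1c had a log2 fold change of 3.84 (adjusted p = 3.8e-06), Gzma of 4.82 (adjusted p = 1e-05) and Prf1 of 6.35 (adjusted p = 4.38e-06), all higher in TM. The other 7 members have no adjusted p in the authors' deposited table. With DESeq2 in place of edgeR the same 3 of the 7 tested genes passed in TMP and in TMPC against TM, and the other 4 received no adjusted p. DESeq2 called 36.8% of all genes in the first and 43.5% in the second.

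Between subcutaneous TMPC and TMP no T or NK cell gene passed, and 0 of 15277 genes did by edgeR (0% of those tested). At an unadjusted p under 0.05 there were 465 genes, none of the 7 tested members among them, and DESeq2 called 17 genes (0.111%) and no member. Such genes numbered 1144 without TM replicate 2 and 817 in a fit of only these 2 groups, with no tested member in either. Lck differed by 0.30 ± 1.22 and Gzma by -0.70 ± 1.31 on the log2 scale (SE), so differences of a few fold in either direction are not excluded. No member had groups that did not overlap, where 5.97% of all genes were higher and 5.26% lower in every TMPC library. Over the group, Lck had 31 counts in TMP and 35 in TMPC, and Gzmb 14 in each. Gzma had 84 counts in TMP, of which 73 came from replicate 3, and 47 in TMPC.

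The sites were compared in TMPC tumours grown in the organ of origin and under the skin. Gzma was higher in the orthotopic tumours, at 489 counts over the group against 47, a pooled ratio of 9.16 (95% counting interval 6.79 to 12.6). Its log2 fold change was 3.17 ± 0.66 (SE; adjusted p = 0.0195, edgeR), where 27.8% of 15123 genes passed 14.0% higher and 13.8% lower. The call rested on the choice of libraries. It held without orthotopic replicate 3 (3.59 ± 0.40, adjusted p = 0.00618, beside 30.6% of all genes) and with DESeq2 (adjusted p = 4.91e-05, beside 40.5% of all genes). Without any other single library the log2 fold change was 2.75 to 3.23 and did not pass, with adjusted p from 0.0502 without subcutaneous TMPC replicate 1 to 0.0708 without subcutaneous TMPC replicate 2. In a fit over all 12 libraries it did not pass either (3.13, adjusted p = 0.0896). All 3 orthotopic libraries were above all 3 subcutaneous TMPC libraries.

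Lck, Klrb1c and Gzmb were also tested and did not pass, at 0.71 ± 0.49 (adjusted p = 0.303), 1.55 ± 0.78 (adjusted p = 0.176) and 1.12 ± 1.19 (adjusted p = 0.503) on the log2 scale. Klrb1c passed when subcutaneous TMPC replicate 1 was left out (2.74 ± 0.72, adjusted p = 0.0493), beside 3510 of 15801 genes. That library was at 0.702 CPM beside 0.107 and 0.155 CPM. Without it the subcutaneous TMPC counts were 2 and 3, so Klrb1c was tested only through the orthotopic libraries, which fixes its direction. The remaining 6 genes were too low for the filter. Without that filter Cd8a passed at 4.56 ± 1.12 (adjusted p = 0.0346, edgeR), beside 19.2% of 19867 genes. In the authors' deposited table Cd8a was at 4.92 (adjusted p = 0.0145) and Gzma at 3.16 (adjusted p = 3.97e-05).

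Pooled counts of Cd8a, Cd3g, Nkg7, Ncr1, Klrb1c, Prf1, Gzmb and Lck were higher in the orthotopic tumours. Replicates differed far beyond counting error, and the share of all genes with such intervals was not computed. The ratios are therefore descriptions. Cd8a had 37 counts against 1 (ratio 32.6, interval 5.5 to 1322), Cd3g 20 against 3 (5.87, 1.74 to 30.9) and Nkg7 33 against 6 (4.84, 2 to 14.1). Ncr1 was at 3.13 (1.46 to 7.46), Klrb1c at 3.01 (1.73 to 5.51) and Prf1 at 2.2 (1.02 to 5.14). The ratios were 2.01 (1.04 to 4.08) for Gzmb and 1.59 (1.03 to 2.47) for Lck. These intervals cover counting error only. Cd3e, with 12 counts against 0, was at least 3.52-fold higher. Of the Cd3g counts 18 came from orthotopic replicate 1. Groups did not overlap for 3 of the 10 genes, Cd3e, Cd8a and Gzma, all higher in the orthotopic tumours, as were 19.9% of all genes in every library.

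The balance between the granzymes differed between libraries. Gzma made up 54.4%, 51.9% and 69.7% of the Gzma and Gzmb counts in TM, and 94.8% (95% Clopper-Pearson interval 90.9 to 97.4), 98.4% (96 to 99.6) and 70.7% (57.3 to 81.9) in orthotopic TMPC. In subcutaneous TMPC the shares were 100%, 58.6% and 90%, and in TMP replicates 1 and 2 100% and 66.7%, from few counts. TMP replicate 3, with 73 Gzma and 10 Gzmb counts, was at 88% (79 to 94.1). Orthotopic replicates 1 and 2 and TMP replicate 3 were thus above every TM library, and orthotopic replicate 3 was not separable from TM replicate 3. No exact permutation test was made on these shares, since 3 against 3 libraries allow no two-sided p below 0.1.

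Lineage markers also differed in balance. The CD3 genes made up 12.8%, 46.0% and 11% of the counts of Cd3e, Cd3g, Ncr1 and Klrb1c in TM. TM replicate 2, with an interval of 43.1 to 49, was above the others, whose shares were close to each other. In orthotopic TMPC the shares were 43.6%, 13.9% and 9.68%, with replicate 1 highest. Ifng, the cytokine of activated T and NK cells, was at 55.1 CPM in TM replicate 2 and at 0 and 0.275 CPM in the other TM libraries.

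**Figure D3:**
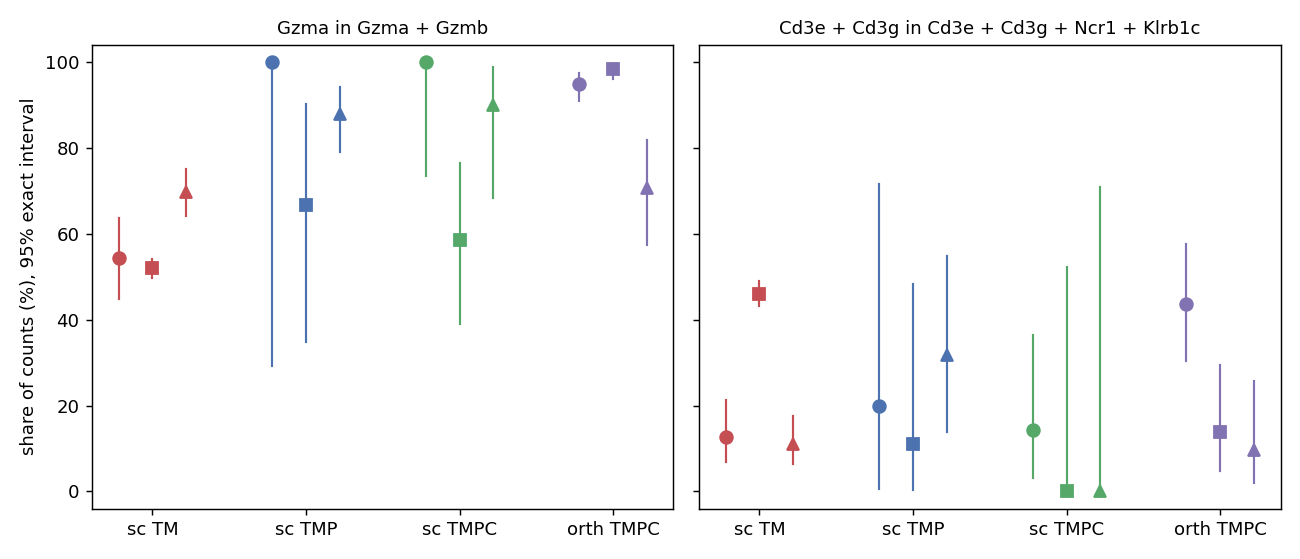
Share of Gzma in the Gzma and Gzmb counts (left) and of the CD3 genes in the counts of Cd3e, Cd3g, Ncr1 and Klrb1c (right) in each library, with 95% exact binomial intervals. Orthotopic replicates 1 and 2 sit at 94.8% and 98.4% on the left, and TM replicate 2 sits at 46.0% on the right, above TM replicates 1 and 3.

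The wider pathway lists were read in the same fits, beside 13.4% of all genes lower in TMP and 17.8% in TMPC than in TM (15.1% and 20.1% without TM replicate 2). Some of their genes were again tested only through TM, which fixes their direction, and their counts are given as descriptions. Of 20 genes of T cell receptor signalling 12 were tested, 6 of them only through TM, of which 7 were lower in TMP than in TM and 8 in TMPC than in TM, none higher, and 5 and 6 without TM replicate 2. Among them the adaptor gene Skap1 was at -3.93 ± 0.89 in TMP (adjusted p = 0.0166) and -2.50 (adjusted p = 0.0155) without TM replicate 2. Skap1 was tested only through TM. Fyb, an adaptor of T cells that myeloid cells also express, was at -3.77 ± 0.74 in TMP (adjusted p = 0.0108) and -3.42 (adjusted p = 0.0111) without replicate 2. Of 12 genes of T cell identity and homing 4 were lower in TMP and 5 in TMPC (2 and 4 without TM replicate 2, when Lef1 was higher in TMPC at 3.35, adjusted p = 0.0449). Cxcr3, a chemokine receptor of effector T cells, was at -5.72 ± 1.29 in TMP (adjusted p = 0.0166) and -4.52 (adjusted p = 0.0147) without replicate 2, and was tested only through TM, as was Ikzf3. The median over all genes tested was -0.07 in both comparisons with TM.

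Of the NK cell receptors and regulators 19 were tested, but 13 of them, such as Klrc1 and Xcl1, only through TM. Of the 19, 14 were lower in TMP and 16 in TMPC than in TM, and 12 and 14 without TM replicate 2, with none higher. Klrc1, which encodes the receptor NKG2A, was at -8.20 ± 1.70 in TMP (adjusted p = 0.0129) and -5.04 (adjusted p = 0.00352) without replicate 2. Xcl1, a chemokine that draws cross-presenting dendritic cells, was at -7.02 ± 1.29 in TMPC (adjusted p = 0.00556) and -6.11 (adjusted p = 0.00486) without replicate 2. Tyrobp, an adaptor of NK and myeloid receptors, was at -2.40 ± 0.50 in TMP (adjusted p = 0.0132) and -1.57 (adjusted p = 0.00458) without replicate 2.

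Of 17 tested genes of cytotoxic granules and effectors 6 were lower in TMP and 11 in TMPC, with none higher, and 6 and 7 without TM replicate 2. Rab27a, which brings granules to the membrane, was at -3.01 ± 0.55 in TMP (adjusted p = 0.00864) and -2.39 (adjusted p = 0.00753) without replicate 2. Serpinb9, an inhibitor of granzyme B, was at -4.10 ± 0.71 in TMPC (adjusted p = 0.00451) and -3.07 (adjusted p = 0.00191) without replicate 2. Among regulatory and inhibitory receptors 3 of 8 were lower in both, and without TM replicate 2 it was 2 and 4, with 1 higher in each. Foxp3, the regulator of regulatory T cells, was at -2.38 ± 0.59 in TMP (adjusted p = 0.0223) and -2.45 (adjusted p = 0.0272) without replicate 2, from 1.81, 1 and 0.824 CPM in TM to 0.178, 0.381 and 0.141 CPM. Replicate 2 was not its highest TM library. Of the 8 tested in that list, Foxp3, Il2ra and Tigit were tested only through TM, which fixes their direction. The gamma delta T cell list had 1 tested gene, which passed in no comparison. No gene of these lists passed between TMPC and TMP.

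Between the sites, few of these genes passed, where 14.0% of all genes were higher and 13.8% lower in the orthotopic tumours. Themis, needed for T cell development, was higher in the orthotopic tumours (3.39 ± 0.80, adjusted p = 0.0260), as 1 of 9 tested receptor signalling genes. Ikzf3, a lymphocyte transcription factor, was higher (4.81 ± 0.65, adjusted p = 0.00941) and Lef1 lower (-3.32 ± 0.96, adjusted p = 0.0450) among 11 identity genes. Lef1 did not pass without orthotopic replicate 3 (-3.20, adjusted p = 0.0879). Of 10 tested NK genes 3 were higher, Il18rap (2.97 ± 0.59, adjusted p = 0.0176), Cd244 and Klrk1, the last of which did not pass without orthotopic replicate 3 (2.01, adjusted p = 0.0606). Ikzf3 and Klrk1 did not pass the filter on low counts when TMP and TMPC were fitted without TM. They thus needed the orthotopic libraries to be tested here, which favours their being higher there. The median over all genes tested was 0.05.

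Of 16 granule genes tested between the sites 4 were higher and 2 lower, and the count of lower genes is near the 13.8% of all genes. Rab27a (3.76 ± 0.39, adjusted p = 0.00756) and Unc13d, which primes granules for release (2.73 ± 0.33, adjusted p = 0.00872), were higher. Epithelial cells are known to express Rab27a too, and Krt8 (1.70) and Krt19 (2.06) were also higher in the orthotopic tumours on the log2 scale; their part was not tested. Gzmd was lower (-4.96 ± 0.78, adjusted p = 0.0114), as was Gzme (-3.67 ± 0.66, adjusted p = 0.0143), granzymes of the cluster that holds Gzmb. Gzmd was at 9.01, 2.94 and 9.96 CPM in subcutaneous TMPC and at 0.133, 0.407 and 0.111 CPM in orthotopic TMPC. Gzmd and Gzme also departed from Gzmb in TM replicate 2, where they were at 0.267 and 0.133 CPM while Gzmb was at 67.7 CPM. The granzymes of this cluster are alike in sequence, so counts may be split among them.

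Genes of other leukocytes were also lower in TMP and TMPC than in TM. Of 8 common leukocyte genes 7 were lower in TMP and 8 in TMPC than in TM, with 7 in each when TM replicate 2 was left out, beside the 13.4% and 17.8% of all genes (15.1% and 20.1% without it). Of 12 macrophage genes 9 and 11 were lower (7 and 9 without replicate 2), of 4 tested B cell genes 3 and 4 (3 and 3), and of 5 neutrophil genes 4 and 5 (3 and 4). Of 6 dendritic cell genes 2 were lower in each, and 0 and 1 without replicate 2. The B cell genes Cd79b and Jchain and the dendritic cell genes Xcr1, Clec9a and Cd209a were tested only through TM, which fixes their direction. Of 8 epithelial genes none passed in TMP or TMPC against TM, but 2 were lower in TMPC without replicate 2. No mast cell gene passed against TM. Of 8 fibroblast and muscle genes Dcn was lower in both. Without replicate 2 Dcn did not pass in TMP (-0.92, adjusted p = 0.0729), and of that list 2 were lower in TMP, and 4 lower and 1 higher in TMPC. Of 6 endothelial genes Vwf and Tek were lower in TMPC, and neither passed without replicate 2 (-1.41, adjusted p = 0.0588, and -1.10, adjusted p = 0.0660). Between the sites 4 of the 8 leukocyte genes, 3 of 4 B cell genes and 3 of 8 epithelial genes were higher in the orthotopic tumours, beside 14.0% of all genes. Jchain, among those B cell genes, needed the orthotopic libraries to pass the filter, which favours its being higher there. The 2 of 12 macrophage genes and 1 of 5 neutrophil genes that were higher are near that share. In bulk tissue, fewer cells of a type and less RNA per cell cannot be told apart.

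The 8 common leukocyte genes summed to 1157, 4447 and 1122 CPM in TM, 177 to 382 CPM in TMP, 185 to 277 CPM in subcutaneous TMPC and 384 to 720 CPM in orthotopic TMPC. The 10 T and NK cell genes summed to 18.5, 367 and 30.5 CPM in TM, 0.773 to 6.82 CPM in TMP, 1.6 to 3.15 CPM in subcutaneous TMPC and 8.47 to 14.6 CPM in orthotopic TMPC. Set against the leukocyte sum, the T and NK sum was 1.6%, 8.26% and 2.72% in TM. It was 0.436%, 0.598% and 2.27% in TMP, 1.1%, 1.7% and 0.707% in subcutaneous TMPC, and 2.77%, 3.79% and 1.18% in orthotopic TMPC. The groups overlapped on this ratio, with TM replicate 2 above all other libraries, and the part of other leukocytes in the results was not tested. Orthotopic replicate 3 had the highest leukocyte sum of its group and the lowest ratio, with S100a8, a neutrophil gene, at 245 CPM against 3.29 and 3.17 CPM.

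**Figure D4:**
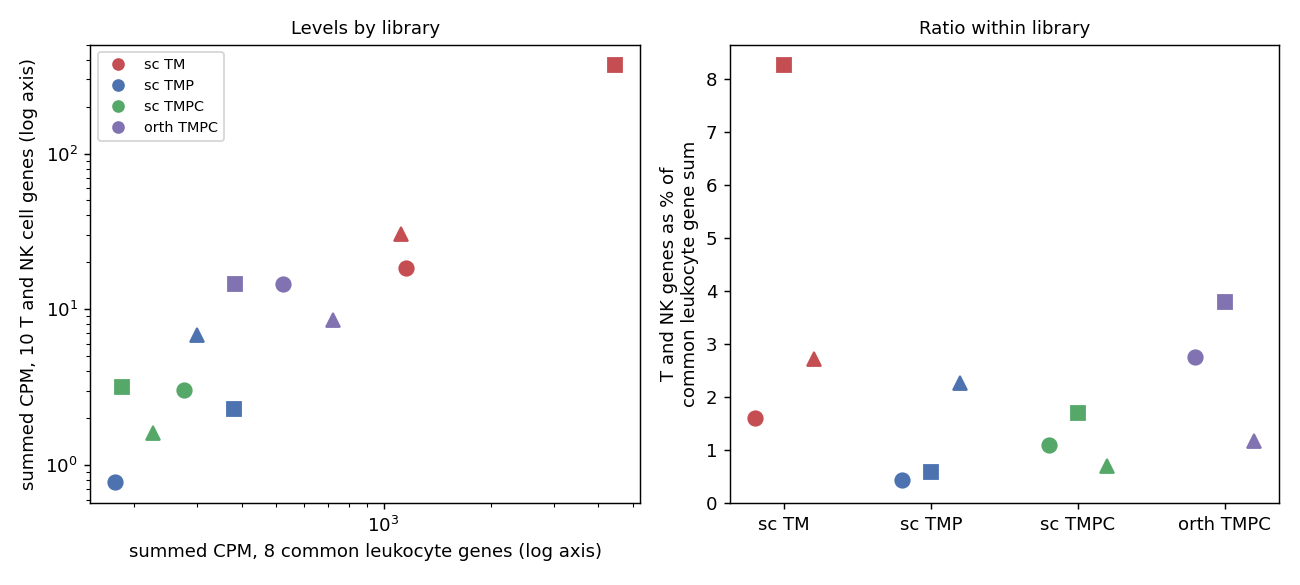
Summed CPM of the 10 T and NK cell genes against that of 8 common leukocyte genes in each library on log axes (left), and the first as a percentage of the second (right). On the right TM replicate 2 sits at 8.26% and the other 11 libraries between 0.436% and 3.79%, with overlapping groups.

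Genes whose profile was most like the mean of the 10 were sought among 14195 genes, by the root mean square difference of centred log2 CPM. Over the 12 libraries they were Gbp5 (0.579), Phf11a (0.591), Klrg1 (0.600), Sp110 (0.610) and Tbx21 (0.612), where the members themselves lay at 0.638 to 1.44. Gbp5 encodes a guanylate-binding protein induced by interferon, Klrg1 an inhibitory receptor of effector T and NK cells and Tbx21 the transcription factor T-bet. Gbp5 was at 14.9, 942 and 15.8 CPM in TM and at 0.951 to 5.44 CPM in TMP. Over the 11 libraries without TM replicate 2 the nearest were Slamf9 (0.506), Sp110 (0.517), Rgs18 (0.532), Rtn4rl1 (0.540) and Gbp5 (0.546), so 2 of 5 were in both searches. Slamf9, at 60.7 and 55.8 CPM in TM replicates 1 and 3, was at 20.5 CPM in replicate 2. The libraries fall into the same 4 groups for every gene, and the likeness is a description.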

How the data were processed

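Bulk polyA RNA was sequenced as 150 bp pairs, per the labels' protocols. The submitters' processing notes name STAR 2.6.0, the mm10 build and DESeq2. Which counter and annotation were used, and whether strand was, is not given in the sources used here. For each gene the authors deposited whole-number counts in 2 tables, with a normalized signal (counts over a size factor), log2 fold changes and adjusted p-values, per the file headers. In the subcutaneous table symbols were out of step with counts from entry 12291 on (12131 entries, 3 of the 10 genes), so symbols were taken by position from the other table, whose subcutaneous TMPC counts were equal in all 24421 entries. Counts then matched the deposited signal for 24419 of 24419 genes, within 0.01 reads. Chi-square per degree of freedom between replicates was 28.4 to 429, well above sampling noise, so all were kept as separate libraries.

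Tests used edgeR 4.0.16 under R 4.3.3 (glmQLFit, glmQLFTest, TMM, filterByExpr, Benjamini-Hochberg, threshold 0.05), the 9 subcutaneous libraries in one fit and the 6 TMPC libraries in another, with 6 and 4 residual degrees of freedom. The steps were tested on simulated data, with 100 genes changed 2-fold and 100 changed 4-fold in each comparison. They found 0% to 2% of the genes changed 2-fold and 29% to 35% of those changed 4-fold. The standard error is the log2 fold change over the square root of F. Group ratios are of pooled counts, with Clopper-Pearson intervals at 95%. Exon lengths come from GENCODE on mm10, promoters from RefSeq. Alternatives were DESeq2 1.42.0 and its size factors, no filter, a replicate block, other sets of libraries, and each library left out. The 10 genes and the lists were chosen with earlier results of these data known. Named were the 10, up to 3 genes per list and comparison with the smallest adjusted p past the threshold, and the 5 nearest profiles in each search; Ptprc, Gzme, Cd8b1, Ifng, S100a8, Krt8 and Krt19 were added after their values were seen. The 2 single-cell samples were not analysed here.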

Additional observations from a re-analysis of the deposited data

How the results depend on the processing

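Of the 7 tested T and NK cell genes in TMP against TM, the main analysis called 7, DESeq2 3, the fit with a replicate block 4 and the fit of only those 2 groups 2. Leaving out 1 library gave 0 to 8 called members and 1550 to 4885 called genes. In TMPC against TM the members called were 3 with DESeq2, 4 with the replicate block, 4 with only those 2 groups and 0 to 8 with 1 library left out. All genes called were 3536 with only those 2 groups and 3414 to 6390 with 1 library left out. Between the sites 2 members were called without a filter, 0 with the replicate block, 0 in a fit of all 12 libraries and 0 to 1 with 1 library left out. The replicate block gave 1777 called genes there, and leaving out 1 library 387 to 4789. For TMPC against TMP, DESeq2 called 17 genes. The cause of these changes was not tested, nor was the part of the fewer degrees of freedom that fewer libraries leave.

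No member changed sign against TM, where the filter sets the direction of 6 of the 7 tested, so this shows nothing of stability. Between TMPC and TMP, where no member was called, signs changed. Gzmb was at -0.67 with the replicate block. With 1 library left out the log2 fold changes ran from -0.12 to 1.86 for Lck, -0.44 to 1.21 for Klrb1c, -1.77 to 0.24 for Ncr1, -1.19 to 1.42 for Gzma, -2.0 to 1.12 for Gzmb and -5.33 to 0.041 for Prf1.

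Replicate numbers were not taken as pairs. Deviations of same-numbered libraries correlated at 0.0936 to 0.264 in TMP and TM, -0.112 to 0.241 in TMPC and TM, -0.207 to 0.207 in TMPC and TMP and -0.088 to 0.0842 between the sites, with 5, 4, 2 and 2 of 6 libraries closest to their own number. The block gave 3032 called genes in TMP against TM. Depth limits the CD3 genes and Cd8a outside TM replicate 2, and most other members outside TM, which have a few counts per library.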
